A study of Mus musculus with 4 samples.

Results

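The 10 genes described here are encoded by the mitochondrial genome and specify subunits of the respiratory chain in mouse splenic B cells. They are mt-Nd1, mt-Nd2, mt-Nd4, and mt-Nd5 of complex I, mt-Cytb of complex III, mt-Co1, mt-Co2, and mt-Co3 of complex IV, and mt-Atp6 and mt-Atp8 of the ATP synthase, complex V. They were found by symbol in the feature table, and all 10 were present among its 31053 genes. The table holds 13 genes with the prefix mt-, and the other 3, mt-Nd3, mt-Nd4l, and mt-Nd6, also encode complex I subunits and are given for comparison. The scRNA-Seq experiment used WT splenic B cells in 2 cultures, with 2 samples each. Bregs-CpG were purified B cells kept for 3 days in medium that held CpG B ODN 1668, a TLR9 ligand, and Bregs-TLR had the same culture and, in its final 5 hours, also LPS, PMA, and ionomycin, so that both groups carried the CpG exposure. All cells were activated in culture, and an estimated 5000 per sample were loaded. The labels do not say whether samples came from separate animals.

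Mitochondrial DNA carries only a small part of the respiratory chain, and the remaining subunits are encoded in the nucleus and imported. Each strand of the circular genome is transcribed as one long RNA, from which transfer RNAs are cut out so that the messenger RNAs between them are released and given a poly(A) tail. Because one precursor holds most of these genes, their levels are known to depend on the processing and stability of each RNA as well as on transcription. In single-cell data, the share of such transcripts is commonly used to discard damaged cells.

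The sequences below are shown because gene borders decide which gene a read is counted for, and the library chemistry reads the end next to the poly(A) tail. They were read from the GENCODE vM21 transcripts and lie on the plus strand of the mitochondrial chromosome of GRCm38. The 43 bases at chrM:7927-7969 belong to both mt-Atp8 and mt-Atp6, which are read in different frames from 1 messenger RNA, and the shared bases are in capitals. The first line is mt-Atp8 whole (chrM:7766-7969), and the second is the start of mt-Atp6 (chrM:7927-8006).
mt-Atp8: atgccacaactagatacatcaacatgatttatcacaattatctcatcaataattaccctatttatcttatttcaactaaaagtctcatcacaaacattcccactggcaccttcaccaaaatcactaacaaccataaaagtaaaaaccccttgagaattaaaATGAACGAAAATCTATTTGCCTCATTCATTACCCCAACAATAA
mt-Atp6: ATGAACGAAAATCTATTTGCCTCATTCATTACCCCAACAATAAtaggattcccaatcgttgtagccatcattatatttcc
In the same way, mt-Nd4l and mt-Nd4 share 7 bases at chrM:10167-10173, again in capitals. The end of mt-Nd4l (chrM:10114-10173) and the start of mt-Nd4 (chrM:10167-10226) are printed.
mt-Nd4l: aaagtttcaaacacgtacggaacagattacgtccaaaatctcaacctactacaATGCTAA
mt-Nd4: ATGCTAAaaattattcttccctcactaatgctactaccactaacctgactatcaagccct
Of the 10 genes, mt-Co3, mt-Nd4, and mt-Cytb end with 1 base past the last whole codon, a T that the poly(A) tail turns into a stop codon, while mt-Co2 has its own stop codon TAA. The last 30 bases of each show this in capitals.
mt-Co3 end: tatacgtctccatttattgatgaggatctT
mt-Nd4 end: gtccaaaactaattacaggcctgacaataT
mt-Cytb end: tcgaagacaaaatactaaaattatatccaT
mt-Co2 end: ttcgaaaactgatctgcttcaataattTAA
Some members have nuclear copies. BLAST of each gene against annotated transcripts, at 90% identity or more, found unprocessed pseudogenes on chromosome 1 that were identical to mt-Co2, mt-Atp6, and mt-Co3 over 99.6%, 99.6%, and 99.9% of the gene and to the first part of mt-Nd4 over 63.6%. None of these copies was in the feature table, and how reads that match both places were assigned was not tested, so the levels of these 4 members are uncertain to that extent. The copies found for mt-Co1, mt-Nd5, and mt-Cytb were 92.4% to 97.6% identical. Among annotated transcripts, no copy was found for mt-Nd1, mt-Nd2, or mt-Atp8, and other nuclear sequence was not searched. On chromosome 1, a stretch lies between the copies of mt-Atp6 (24613974-24614651) and mt-Co2 (24614885-24615565). Whether it holds a copy of mt-Atp8, which lies next to both genes in mitochondrial DNA, was not tested.

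The deposited matrix holds UMI counts, in which each UMI stands for 1 captured RNA molecule. It has more columns (35989) than there are barcodes, and the barcodes were placed on the last columns in order, after 16069 columns that were not used here. At that border, the median UMIs of 400 columns went from 3725 to 8727. At column 25835, where library 7 then starts, the median UMIs went from 8584.5 to 10347, a step at percentile 94.98 of all columns. The median mitochondrial share went from 7.40% to 4.53% there, a step at percentile 99.997. Mitochondrial UMIs are also what is compared between libraries below, so the step in their share is not independent support for the placement. The starts of libraries 6 and 8 showed no clear step (percentiles 86.5 and 61.1 for UMIs). The ending of each barcode, 5 to 8, numbers its library, and no label pairs a number with a sample. The 4 libraries are therefore named by number, no condition was compared, no test was made, and intervals at 95% cover counting error only. At least 1000 genes were found in 19361 cells (4442, 5060, 5749, and 4110 in libraries 5 to 8), and median UMIs per cell were 8693.5 to 10280. Between libraries, 29 barcode sequences occurred more than once. Over these cells, the 6 B cell markers, all detected, summed to 8329, 8548, 2111, and 2168 UMIs per 1000000 UMIs (CPM) in libraries 5, 6, 7, and 8. Markers of T cells (5 of 8 at 0, among them Cd3e), NK cells (4 of 4 at 0), myeloid cells (3 of 6 at 0), and platelets (1 of 2 at 0) reached at most 4.38 CPM in sum. The 5 erythroid markers summed to 4.54, 4.25, 217, and 283 CPM, nearly all from Hbb-bt, while Hba-a1 and Hba-a2 were listed at 0.

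The 10 genes gave 5.87% of all UMIs, and their share was lower in libraries 7 and 8 than in libraries 5 and 6. It was 7.17% in library 5 (Clopper-Pearson 95% interval 7.16 to 7.18), 7.26% in library 6 (7.25 to 7.27), 4.61% in library 7 (4.61 to 4.62), and 4.64% in library 8 (4.63 to 4.64). The highest library was 1.57 times the lowest, whereas library 5 was 0.988 times library 6 and library 7 was 0.994 times library 8. With the limit of under 10% mitochondrial UMIs, the shares were 6.99%, 7.02%, 4.53%, and 4.55%, so the order of the pairs stayed and the ratio was 1.55. The difference was not carried by few cells. Of the cells in library 7, 89.4% lay below the lower quartile of library 5 (6.23%), and of those in library 8, 88.8% lay below the lower quartile of library 6 (6.22%). Per cell, the median number of UMIs from the 10 genes was 634.5, 648, 457, and 450 in libraries 5 to 8, although cells of libraries 7 and 8 had more UMIs in all. B cell markers, Hbb-bt, and UMIs per cell moved with this difference as given above, and their part in it was not tested.

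**Figure D1:**
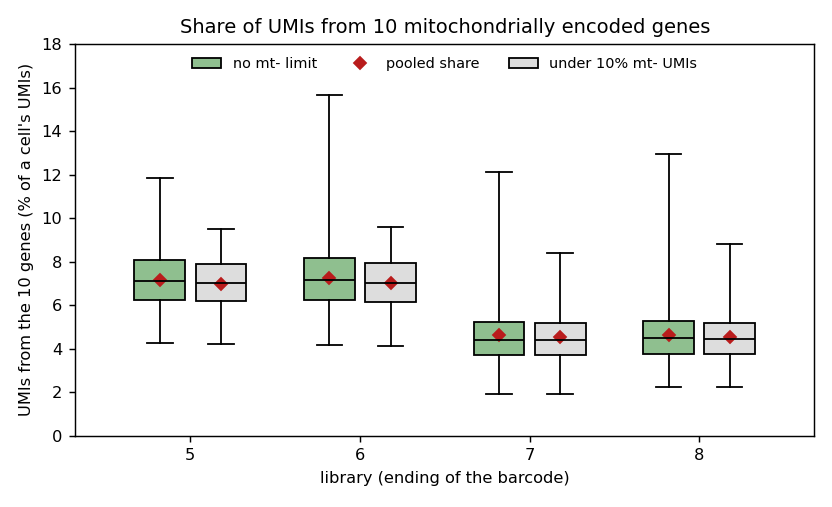
Share of each cell's UMIs from the 10 genes, in percent, by library, with no limit on mitochondrial UMIs (green) and under 10% (grey). Boxes span the quartiles with the median as a line, whiskers reach from the 1st to the 99th percentile of cells, and diamonds are the pooled shares, near 7% in libraries 5 and 6 and 4.6% in libraries 7 and 8.

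Cells at or over the limit were a small part of each library. At least 10% mitochondrial UMIs (all 13 genes) were found in 5.54% of cells in library 5 (246 of 4442, 4.88 to 6.25), 6.84% in library 6 (346 of 5060, 6.16 to 7.57), 2.23% in library 7 (128 of 5749, 1.86 to 2.64), and 2.60% in library 8 (107 of 4110, 2.14 to 3.14). The intervals of libraries 7 and 8 overlapped, as did those of libraries 5 and 6, while those of the pairs lay apart. The cells over the limit also differed in depth between libraries. In libraries 7 and 8, they had medians of 4314.5 and 4206 UMIs, against 10355 and 10077 for the other cells. In libraries 5 and 6, their medians of 8096.5 and 7781.5 UMIs were close to the 8752 and 8785 of the other cells. Malat1, a nuclear RNA, was higher in the cells over the limit, with 18046, 20544, 20569, and 25698 CPM free of mitochondrial UMIs in libraries 5 to 8, against 15627, 15921, 9462, and 10487 CPM in the rest. The 559 barcodes with fewer than 1000 genes were left out, and 24.5% of their UMIs came from the 10 genes.

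Of the complex IV genes, whose products form the catalytic core of cytochrome c oxidase, mt-Co1 and mt-Co2 showed the widest range. In libraries 5, 6, 7, and 8, mt-Co1 (chrM:5328-6872) was at 10647, 11170, 5455, and 5441 CPM. The level of mt-Co2 (chrM:7013-7696) was 11310, 11183, 5640, and 5572 CPM. Thus both were about double in libraries 5 and 6, with a highest to lowest ratio of 2.05 for mt-Co1 and 2.03 for mt-Co2. For mt-Co3 (chrM:8607-9390), the values were 18301, 18492, 13205, and 13123 CPM, a ratio of 1.41, so the 3 subunits of 1 complex did not differ in like measure.

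For complex V, mt-Atp6 (chrM:7927-8607), a subunit of the proton channel, was at 12783, 12749, 9386, and 9495 CPM, a ratio of 1.36. The level of mt-Atp8 (chrM:7766-7969), a small membrane subunit, was 118 (exact Poisson 95% interval 115 to 121), 96.9 (94.3 to 99.5), 159 (156 to 162), and 132 (129 to 135) CPM. It was the only one of the 10 genes at its highest in libraries 7 and 8, and its spread within the pairs was wide, with library 5 at 1.22 times library 6 and library 7 at 1.20 times library 8. Libraries 5 and 8 therefore lay near each other, at 118 and 132 CPM.

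In complex III, mt-Cytb (chrM:14145-15288), which holds the b hemes of the bc1 complex, was at 6865, 7155, 3838, and 3794 CPM, a ratio of 1.89. Of complex I, mt-Nd1 (chrM:2751-3707) was at 2991, 2959, 1514, and 1558 CPM, a ratio of 1.98. The other 3 subunits differed less. The level of mt-Nd4 (chrM:10167-11544) was 4549, 4680, 3368, and 3506 CPM, and that of mt-Nd5 (chrM:11742-13565) was 650.2, 651, 493, and 504 CPM. For mt-Nd2 (chrM:3914-4951), the values of 3486, 3458, 3058, and 3255 CPM gave the lowest ratio among the 10 genes, 1.14.

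In all, 9 of the 10 genes had a highest library at least 0.32 above the lowest on the log2 scale, and among 2329 genes of 50 CPM or more this held for 77.8%. Libraries 7 and 8 were the lowest for 9 of the 10 genes, and for 33.2% of those 2329 genes. All 10 genes passed the minimum of 50 CPM. The order of libraries rests on the placement of the barcodes. On the first columns of the matrix, libraries 7 and 8 were lowest for 1 of the 10 genes, and the shares of the 10 genes were 6.42%, 6.30%, 6.48%, and 7.11% in libraries 5 to 8. With the placement used here, the median log2 ratio of the 10 genes was -0.46 for library 7 over library 5 and -0.46 for library 8 over library 6, while the medians of the 2329 genes were 0.33 and 0.26. With UMIs of mt- genes taken out of the denominator, libraries 7 and 8 were again lowest for 9 of the 10. The same count was found in cells under 10% mitochondrial UMIs. Outside the 10, mt-Nd6, the one gene of the other strand, was at 60.8, 61.4, 21.0, and 18.7 CPM, a ratio of 3.28. At 39.7 CPM over all cells, it did not reach the minimum of 50 CPM, and its median was 0 UMIs per cell. The level of mt-Nd3 was 1811, 1389, 1737, and 1753 CPM, in which libraries 5 and 6 differed more than libraries 5, 7, and 8 among each other.

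**Figure D2:**
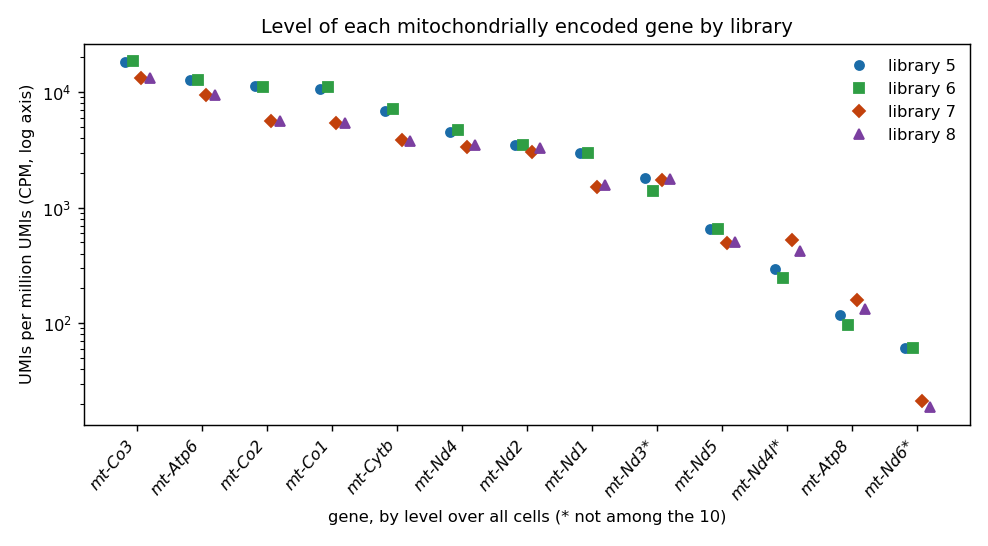
Level of the 13 genes in UMIs per 1000000 UMIs (CPM, log axis) in libraries 5 to 8, ordered by their level over all cells, with the 3 genes outside the 10 marked by an asterisk. Libraries 7 and 8 lie below libraries 5 and 6 for 9 of the 10 genes, and mt-Atp8 and mt-Nd4l have the reverse order.

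The pairs of genes on shared messenger RNAs, shown above, split between libraries. Per 100 UMIs of mt-Atp6, there were 0.921 UMIs of mt-Atp8 in library 5 (interval 0.897 to 0.946), 0.760 in library 6 (0.739 to 0.781), 1.69 in library 7 (1.66 to 1.73), and 1.39 in library 8 (1.35 to 1.42). Per 100 UMIs of mt-Nd4, there were 6.50, 5.26, 15.6, and 12.0 UMIs of mt-Nd4l in libraries 5 to 8. In both pairs, the ratio of upstream to downstream UMIs rose in the order of libraries 6, 5, 8, and 7, and no 2 intervals overlapped. In CPM, mt-Nd4l was 296, 246, 526, and 422, so that it, like mt-Atp8, was highest in libraries 7 and 8 while its partner was lowest there. Genes with no shared bases also shifted against each other. Per 100 UMIs of mt-Nd2, mt-Nd1 had 85.8, 85.6, 49.5, and 47.9 UMIs, and per 100 UMIs of mt-Co3, mt-Co1 had 58.2, 60.4, 41.3, and 41.5. Because each ratio is taken within a library, it does not depend on the other RNAs of the cell. For genes with no shared bases, it shows unequal change of 2 genes without telling which of them changed. For a pair on 1 messenger RNA, it compares the UMIs assigned to 2 parts of that RNA. What set these UMIs apart was not tested, and the ratio does not show that 1 gene's RNA rose while its partner's fell.

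Relative use, the percentage of the UMIs of the 10 genes that came from 1 gene, was led by mt-Co3 with 26.7%, followed by mt-Atp6 with 18.8%, mt-Co2 with 14.2%, and mt-Co1 with 13.8%. Then came mt-Cytb (9.13%), mt-Nd4 (6.81%), mt-Nd2 (5.62%), mt-Nd1 (3.79%), mt-Nd5 (0.973%), and mt-Atp8 (0.218%). By complex, the 3 genes of complex IV gave 54.7% and the 2 of complex V 19.0%, while the 4 of complex I gave 17.2%. The order of complexes I and V rests on the choice of the 10 genes. In CPM, complex V was at 11156 and the 4 genes of complex I at 10090. The complex I genes outside the 10, mt-Nd3, mt-Nd4l, and mt-Nd6, were at 1667, 380, and 39.7 CPM. With them counted, complex I would lie above complex V. Per kilobase of gene, mt-Co3 (19996 CPM per kilobase), mt-Atp6 (16194), and mt-Co2 (12146) kept the first 3 places among the 13 genes. On this scale, mt-Nd5, the longest of the 10 with 1824 bases, was lowest of the 10 at 313 CPM per kilobase, below mt-Atp8 at 627. For a 3' library, in which the count of a molecule does not grow with its length, both scales are given.

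Between libraries, relative use moved in opposite directions. The use of mt-Co2 was 15.8%, 15.4%, 12.2%, and 12.0% in libraries 5 to 8, and that of mt-Co1 was 14.9%, 15.4%, 11.8%, and 11.7%. Use of mt-Nd2 was 4.86%, 4.76%, 6.63%, and 7.02%. Libraries 7 and 8 were thus lower for mt-Co1, mt-Co2, mt-Cytb, and mt-Nd1, and higher for mt-Co3, mt-Atp6, mt-Nd4, mt-Nd2, mt-Nd5, and mt-Atp8. For mt-Co3, by contrast with its level, use was 25.5%, 25.5%, 28.6%, and 28.3%. As a ratio of the highest to the lowest library, the range was widest for mt-Atp8 (2.58), with 0.164%, 0.133%, 0.344%, and 0.284%. Under 10% mitochondrial UMIs, mt-Co3 use was 25.5%, 25.4%, 28.6%, and 28.3% in libraries 5 to 8. That of mt-Atp8 was then 0.164%, 0.133%, 0.344%, and 0.284%. As parts of 1 whole, these shares are tied to each other, so a gene with a small loss in level gains in use.

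**Figure D3:**
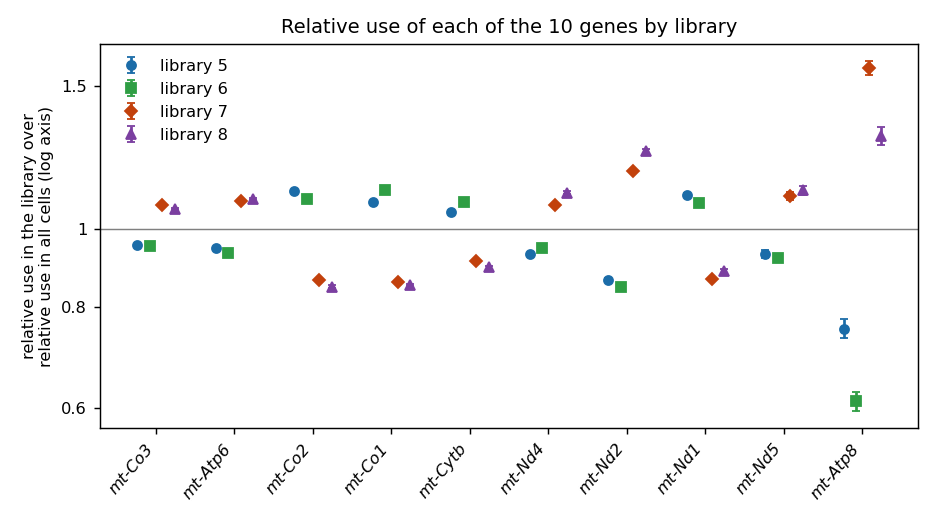
Relative use of each of the 10 genes in libraries 5 to 8, divided by its relative use in all cells (log axis), with Clopper-Pearson 95% intervals of each library's use, mostly smaller than the symbols. Libraries 7 and 8 lie on one side of 1 and libraries 5 and 6 on the other for every gene, from 0.344% and 0.284% against 0.164% and 0.133% for mt-Atp8.

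Most of the 10 genes were found in nearly every cell. Without thinning, 8 of them had a UMI in 99.85% to 99.97% of cells, mt-Nd5 in 97.6%, and mt-Atp8 in 68.6%, with a median of 1 UMI per cell. When every cell was thinned to 2000 UMIs, with 12 cells left out as shallower, a UMI of mt-Atp8 was found in 20.9%, 17.8%, 27.8%, and 23.3% of cells in libraries 5 to 8. For mt-Nd5, these shares were 71.7%, 71.0%, 60.2%, and 61.1%, and for mt-Nd1 they were 99.1%, 99.3%, 91.7%, and 92.4%. The order of libraries was the same as in CPM for mt-Atp8, and libraries 7 and 8 were the lower ones for mt-Nd5 and mt-Nd1. No cell type in these data should lack mitochondrial transcripts, so free RNA could not be measured with these genes.

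Cells were then grouped without any mt- gene, which gave 8 clusters, lettered A to H by size. Clusters A (7813 cells, led by Ltb), D (921), and E (587, led by Ccl3 and Ccl4) came almost wholly from libraries 5 and 6. Clusters B (7115, led by Hbb-bt and Cd86, with Il10 among its leading genes), C (2111), and F (516) came almost wholly from libraries 7 and 8. By the marker lists, D and F were mitotic-like (Mki67 367 and 345 CPM) and C was S phase-like, while A, B, E, and H were not named. S phase markers were not particular to C, with sums of 1115.5 CPM in C, 1392.2 in D, and 1307.5 in F. A cluster of 242 cells, G, was plasmablast-like, led by Jchain, which encodes the joining chain of IgM and IgA (4230 CPM), and it alone held more than 50 cells of libraries from both sets, 55, 93, and 59 in libraries 5, 6, and 7. Its other leading genes included Epcam and Apoe. Differences between clusters A, D, and E on one side and B, C, and F on the other cannot be told apart from differences between libraries.

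The share of the 10 genes was 7.43% in cluster A, 6.47% in D, and 6.64% in E, against 4.54% in B, 4.74% in C, and 5.03% in F. Within libraries 5 and 6, the mitotic-like cells of cluster D were thus below cluster A, with 6.37% and 6.54% against 7.40% and 7.46%. Within libraries 7 and 8, the mitotic-like cells of cluster F were above cluster B, with 5.04% and 5.02% against 4.52% and 4.56%. In the plasmablast-like cluster G, the share was 5.86% in library 5 (interval 5.80 to 5.92), 6.61% in library 6 (6.56 to 6.67), and 3.17% in library 7 (3.14 to 3.21). Within cluster G, library 7 was thus also the lowest of these libraries. The quartiles of cells were 1.90% to 3.80% in library 7, 4.36% to 7.38% in library 5, and 5.61% to 8.17% in library 6. Whether cluster G held a like mix of cells in each library was not tested. Over all libraries, the cluster with the most Jchain had a share of 5.00% at the resolution used. At resolutions 0.1 and 0.5, that share was 4.13% and 4.04%. Cluster H had 56 cells, 48 of them from library 6, and stood apart with a share of 15.3%. Of its cells, 85.7% had at least 10% mitochondrial UMIs, their median was 3976.5 UMIs, and Malat1 was at 30100 CPM, the highest of the 8 clusters.

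**Figure D4:**
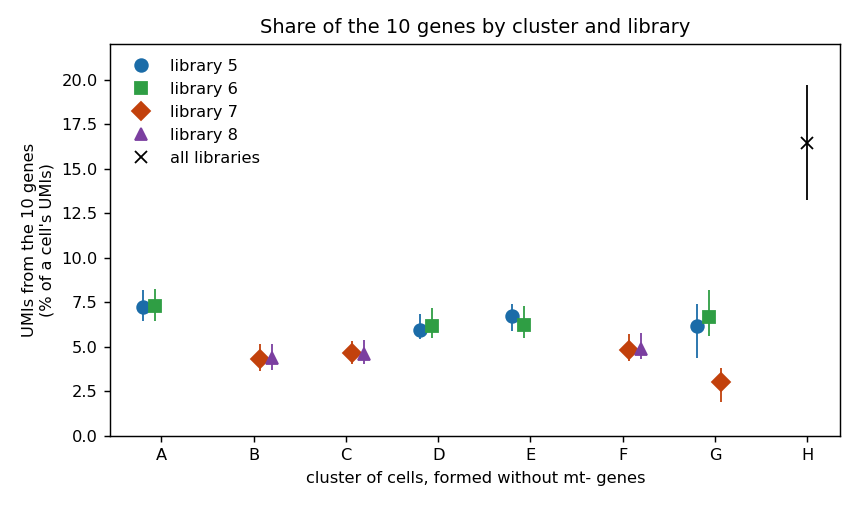
Share of each cell's UMIs from the 10 genes, in percent, by cluster and library, for groups of at least 50 cells. Symbols are medians over cells and lines span the quartiles, and cluster H is shown over all libraries. In cluster G, the quartiles of library 7 (1.90% to 3.80%) lie below those of libraries 5 and 6.

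Relative use was also taken per cluster and library. All clusters but G lay almost wholly in libraries 5 and 6 or in libraries 7 and 8. Their values therefore restate the difference between libraries, and only cluster G allows a comparison within a cluster. The use of mt-Atp8 lay between 0.121% and 0.170% in every group of libraries 5 and 6 and between 0.283% and 0.356% in every group of libraries 7 and 8, with the plasmablast-like cells at 0.148% and 0.121% in libraries 5 and 6 and 0.318% in library 7. In the same cells, mt-Cytb use was 10.1%, 10.2%, and 7.52%, and mt-Nd2 use was 4.46%, 4.43%, and 5.07%. Their mt-Co1 use was closer, at 15.3%, 15.6%, and 14.5%. Use of mt-Nd1 was higher in the mitotic-like clusters than in cluster A or B. In libraries 5 and 6, it was 4.80% and 4.66% in cluster D against 4.03% and 3.93% in cluster A. In libraries 7 and 8, it was 4.26% and 4.27% in cluster F against 3.12% and 3.20% in cluster B. This was not particular to mitotic-like clusters, since cluster E had 4.50% and 4.65% in libraries 5 and 6.

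Within each library, cells in the top 10% by share of the 10 genes were compared with those in the bottom 10%, to describe what else distinguished cells rich and poor in these transcripts. The share was 10.3%, 10.8%, 7.77%, and 8.16% in the top 10% of libraries 5 to 8 and 4.92%, 4.85%, 2.68%, and 2.77% in the bottom 10%. These values follow from the split. Use among the 10 genes was not ranked on, but its denominator is the sum that the split used. The steps in use below are therefore not independent of the split. From the bottom to the top 10%, mt-Co1 use went from 15.4% to 13.6% in library 5, 15.4% to 14.0% in library 6, 14.2% to 10.7% in library 7, and 13.4% to 10.9% in library 8. Over the same steps, mt-Atp6 use went from 17.4% to 18.8%, 17.1% to 18.5%, 19.7% to 21.2%, and 19.6% to 21.0%. Cells poor in the 10 genes were thus relatively rich in mt-Co1, and cells rich in them in mt-Atp6 and mt-Cytb, in all 4 libraries. In the barcodes under 1000 genes, mt-Co1 use was lower still at 9.86% to 13.7%, with mt-Atp6 use at 20.1% to 22.8%.

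Among 2455 other genes of 50 CPM or more, 5 (0.204%) were at least 1.5-fold higher and 8 (0.326%) at least 1.5-fold lower in the top 10% than in the bottom 10% in all 4 libraries. These counts were 1 and 3 without clusters D, F, and G, 14 and 10 without library 5, and 13 and 23 without library 7. The lower ones included the immunoglobulin genes Igkc, Ighm, and Iglc1, and Jchain, whose CPM in the bottom 10% was 286, 670, 582, and 224 in libraries 5 to 8, against 0, 27.5, 2.40, and 22.5 in the top 10%. The compared cells differed in their clusters. The plasmablast-like cluster G made up 3.65% to 5.57% of the bottom 10% and 0.348% to 2.77% of the top 10%. In libraries 5 and 6, the mitotic-like cluster D made up 23.9% and 23.5% of the bottom 10% against 3.60% and 8.50% of the top 10%, and cluster E 10.4% and 12.5% against 2.03% and 1.98%. Cluster H was 8.50% of the top 10% in library 6. In libraries 7 and 8, the mitotic-like cluster F was the smaller part of the bottom 10%, with 2.79% and 1.95% against 7.32% and 8.52%. The S phase-like cluster C made up 22.3% and 13.4% of the top 10% in libraries 7 and 8, against 10.5% and 12.9% of the bottom 10%. Clusters C, E, and H were not left out in the values that follow, which thus still include S phase-like cells. Without clusters D, F, and G, Igkc and Ighm had the reverse direction in all 4 libraries (log2 ratios 0.06 to 0.84 and 0.13 to 1.12), and Jchain and Iglc1 had no single direction. The other 4 genes stayed lower in all 4 libraries, and of them only Rrp15 kept the limit of 1.5-fold. Eif4ebp1, which encodes a repressor of the cap-binding protein eIF4E, had log2 ratios of -1.48, -1.54, -0.89, and -0.90 in libraries 5 to 8, and -0.57 to -0.86 without those clusters. Rrp15, of ribosome biogenesis, had ratios of -0.71, -1.05, -0.61, and -0.88, and -0.69 to -1.05 without those clusters. For Psph, the last enzyme of serine synthesis, the ratios were -1.06, -1.41, -0.79, and -0.72, and they came closer to 0 without those clusters, at -0.34, -0.30, -0.60, and -0.68. Hbb-bt had ratios of -0.83, -1.48, -0.91, and -1.06, and -0.39, -0.58, -0.99, and -0.90 without those clusters. Just outside the limit were Ifrd1 (-0.56 to -1.75) and Eif4e (-0.56 to -0.78). Without clusters D, F, and G, Ifrd1 passed the limit in all 4 libraries (-0.67 to -1.32). So did Nifk, named here after its values were seen (-0.68 to -0.93).

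The 5 genes that were at least 1.5-fold higher in cells rich in the 10 genes were Siglecg, Klhl24, Gm26740, Neurl3, and Btg2. Siglecg, an inhibitory sialic acid-binding receptor, had log2 ratios of 0.70, 0.77, 0.79, and 1.10 in libraries 5 to 8. Btg2, an antiproliferative gene, had ratios of 0.60, 0.72, 0.74, and 0.85. Klhl24 (0.68 to 1.26), Neurl3 (0.60 to 0.91), and Gm26740 (0.65 to 1.31) completed them. Just outside the limit were Cd22, an inhibitory receptor of the same family as Siglecg (0.54, 0.66, 0.74, and 1.05), AU020206 (0.54 to 1.20), Atp2a3, a calcium pump of the endoplasmic reticulum (0.58 to 1.54), the scavenger receptor Cd36 (0.56 to 1.15), and Arhgap25 (0.53 to 1.12). All 10 genes stayed higher in all 4 libraries without clusters D, F, and G, with ratios from 0.25 (Arhgap25 in library 6) to 1.55 (Atp2a3 in library 8), but none of the 5 kept the limit of 1.5-fold in all 4, and their lowest ratios were 0.30 (Btg2) to 0.45 (Neurl3). The 1 gene then past it was Top2a, a topoisomerase of dividing cells, named here after its values were seen (0.59 to 1.45). The S phase-like cluster C was still part of this comparison. Cells of the top 10% also had fewer UMIs, with medians of 8107, 8012, 8050, and 6391 against 9076, 8669, 8970, and 9152 in the bottom 10%. Among cells between the quartiles of UMIs, none of the 5 passed the limit and Cd36 alone did, while 7 genes were lower, among them Eif4ebp1, Rrp15, Jchain, Igkc, Ighm, and Iglc1. Malat1 was higher in the top 10% in all 4 libraries, with log2 ratios of 0.29 to 0.61.

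**Figure D5:**
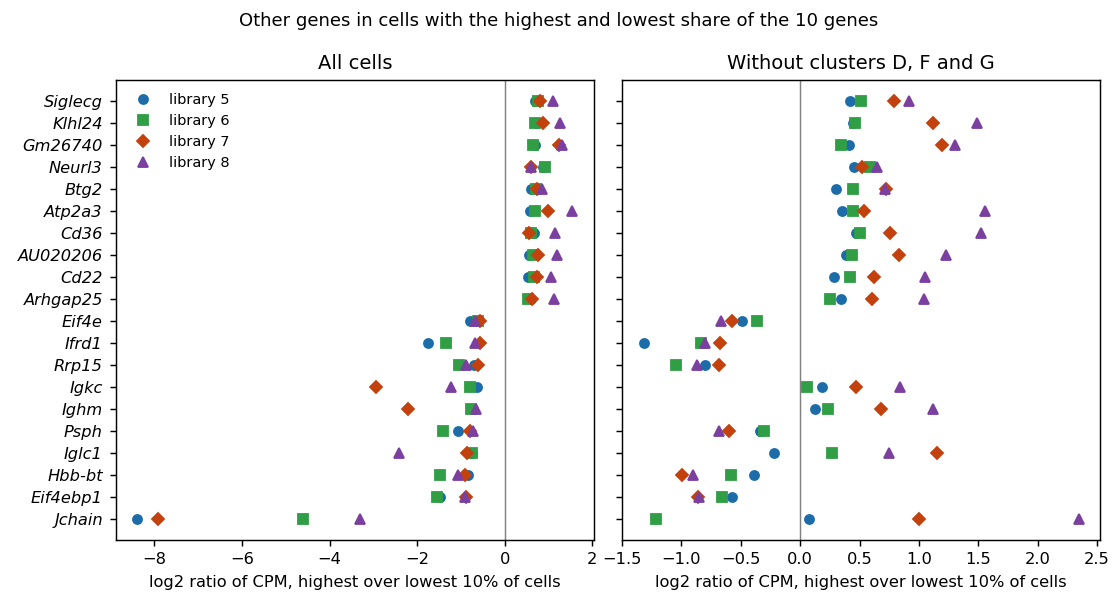
Log2 ratio of CPM (free of mt- UMIs) between cells in the top and in the bottom 10% by share of the 10 genes, for the 20 named genes in libraries 5 to 8, over all cells (left) and without the mitotic-like clusters D and F and the plasmablast-like cluster G (right). The horizontal axes differ, Jchain in library 5 (0 UMIs in the top 10%) is drawn at a floor of 3 counts, and the ratios of Igkc and Ighm lie below 0 on the left and above 0 on the right.

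Across cells, the 10 genes varied together to unequal degrees. Spearman's rho between the share of 1 gene and that of the other 9, both over UMIs free of the 10, was 0.84 to 0.87 for mt-Co3, 0.81 to 0.89 for mt-Atp6, 0.77 to 0.83 for mt-Co2, and 0.77 to 0.81 for mt-Cytb over the 4 libraries (4110 to 5749 cells each). It was 0.43 to 0.59 for mt-Co1, although mt-Co1 had about as many UMIs per cell as mt-Co2 (medians of 72 and 75). For the sparse mt-Nd5 and mt-Atp8, rho was 0.30 to 0.51 and 0.19 to 0.31. These values share a denominator and a depth per cell, and they are given as a description. The share of the 10 genes itself had a rho of -0.07 to 0.03 with UMIs per cell. With the cells of a library in 5 equal bins by UMIs, the pooled share was highest in the shallowest bin of libraries 6, 7, and 8, at 7.72%, 5.12%, and 5.57%, and it was 4.41% to 4.65% in the other bins of libraries 7 and 8.

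Over the 15 groups of a cluster and a library with at least 50 cells, the genes outside the mitochondrial genome whose log2 CPM was most like the sum of the 10 genes were Cfp, which encodes properdin of the complement system (Pearson's r 0.98), Blvrb (0.97), Aldh2, the mitochondrial aldehyde dehydrogenase (0.97), Ndufs8, a nuclear-encoded subunit of complex I (0.97), and Gngt2 (0.97), of 2301 genes compared. Ndufs8 was at 142, 147, 109, and 111 CPM in libraries 5 to 8. The most opposite were the translation factor Eif5 (r -0.96), Snx9 (-0.92), Gadd45b (-0.92), Nupr1 (-0.91), and Rala (-0.91). Eif5 was at 254, 254, 640, and 588 CPM. The groups share libraries, so this likeness contains the order of the libraries. Of the 10 genes themselves, mt-Co3 was closest to the sum (0.99), mt-Nd2 was at 0.62, and mt-Atp8 at -0.42, each being part of that sum.

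The nuclear genes of the same pathway were counted by list over 8335 genes of at least 5 CPM, with mt- UMIs taken out of the denominator. Of these, 38.4% were lowest and 52.9% were highest in libraries 7 and 8. Nuclear-encoded subunits of the respiratory chain showed no common order. In complex I, 16 of 36 genes were lowest and 16 highest in libraries 7 and 8, in complex II 2 and 2 of 4, in complex III 2 and 7 of 9, in complex IV 5 and 4 of 11, and in complex V 8 and 7 of 15. Single genes differed widely within a list. Cox7a2l, counted with complex IV by its symbol, was at 1069, 1039, 369, and 388 CPM free of mt- UMIs in libraries 5 to 8. Cox4i1, a regulatory subunit of complex IV, was at 1046, 1047, 732, and 759. In the other direction, Uqcrq of complex III was at 205, 201, 434, and 504 CPM, and Atp5b, the catalytic subunit of the ATP synthase, at 369.9, 374, 701, and 684.

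Genes of mitochondrial RNA processing and stability had an order opposite to that of most of the 10 genes. Of the list of mitochondrial RNA processing and stability, all 16 measured genes were highest in libraries 7 and 8, with median log2 ratios of 0.98 (library 7 over 5) and 0.93 (library 8 over 6), against medians of 0.19 and 0.09 over all 8335 genes. Its most abundant members were Hsd17b10, a subunit of mitochondrial RNase P (86.5, 88.6, 109.6, and 112 CPM), Rexo2, an oligoribonuclease (81.1, 83.8, 101, and 96.2 CPM), and Slirp, a partner of Lrpprc in messenger RNA stability (68.4, 62.5, 83.5, and 88.3 CPM). Of mitochondrial transcription genes, 6 of 8 were highest and 2 lowest in libraries 7 and 8, against 52.9% and 38.4% of the 8335 genes. The median log2 ratios of these transcription genes, 0.28 and 0.21, were close to the 0.19 and 0.09 of all 8335 genes. Among the transcription genes, Tfam, which packages mitochondrial DNA and starts its transcription, was at 57.9, 57.6, 66.3, and 65.7 CPM. Of the genes for mitochondrial ribosomal proteins, 62 of 77 were highest and 12 lowest, among them Mrpl12 at 117, 120.4, 359.5, and 353 CPM.

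Over all 8335 genes, 52.9% were highest and 38.4% lowest in libraries 7 and 8. Mitochondrial DNA replication genes lay near these shares, with 7 of 12 highest in libraries 7 and 8 and 4 lowest. The latter included Dguok, a mitochondrial deoxyguanosine kinase, at 81.4, 86.5, 43.0, and 42.6 CPM. Of 8 biogenesis regulators, 7 were highest and 1 lowest. Myc, a growth regulator, was at 16.3, 16.5, 67.0, and 63.1 CPM, the widest difference among the named genes of the pathway. For cytosolic ribosomal proteins, counted for comparison, 24 of 85 were highest and 47 lowest. Of 3 nuclear-retained RNAs, Malat1 (15730, 16159, 9562, and 10634 CPM) and Neat1 were lowest in libraries 7 and 8 and Kcnq1ot1 was highest. Between the top and bottom 10% of cells, no gene of these lists of at least 50 CPM passed the limit of 1.5-fold in all 4 libraries, where 0.204% and 0.326% of all genes did. The mitochondrial ribosomal proteins had 22 of 56 genes lower and none higher in the top 10% in all 4 libraries at any size, against 741 lower and 566 higher of 2455 genes.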

How the data were processed

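The authors prepared Chromium Single Cell 3' v3 libraries, aligned reads to mm10 with Ensembl 93 genes and counted UMIs in CellRanger (version 3.1.0), and combined libraries with CellRanger aggr, which thins reads toward like depth. The deposited values are whole UMI counts per gene and barcode, not imputed. Symbols come from the deposited feature table, and positions and sequences from GENCODE vM21 (GRCm38), a different release. The members and gene lists were chosen with earlier results of these data known. Barcodes were taken as the last matrix columns, the 16069 columns before them were not used, and libraries were grouped by barcode ending alone. Cells with at least 1000 genes were kept. Values under 10% mt- UMIs are given for the shares and for part of the levels, relative use, and gene counts. Other results are given without that limit. Doublets were not called, and an alternative left out the 5% of cells with the most UMIs. Sums of counts were divided by all UMIs of the group (CPM). Clusters were formed in Scanpy (version 1.11.5) with Leiden at resolution 0.3, from 2000 variable genes without mt- genes, 20 components, and 20 neighbors. Named genes were the 13 mt- genes, the 3 most abundant genes of each list (given in part), the 10 genes at each end of the comparison of the top and bottom 10% of cells, and the 5 at each end of likeness, of at least 50 CPM. Genes with under 3 counts were set to 3 in these ratios. Intervals are Clopper-Pearson for shares and exact Poisson for CPM (SciPy, version 1.17.1). The ratios between libraries, the calls of the lowest libraries, and the Poisson intervals were tested on simulated library sums with known fold changes. Relative use, clusters, the comparison of the top and bottom 10% of cells, and the placement of the barcodes were not tested in this way.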

Additional observations from a re-analysis of the deposited data

How the results depend on the processing

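No paired analysis was possible because the barcodes carry no sample or replicate, and no result comes from a test. A value is said to have moved where it left the 95% counting interval, which is narrow at this depth. The pooled share of the 10 genes (5.87%) became 5.70% under 10% mt- UMIs, 5.89% with a minimum of 500 genes, 5.92% with all barcodes, 5.86% without the 5% of cells with the most UMIs, 8.96% over UMIs free of ribosomal protein and immunoglobulin genes, and 6.01% as the mean of cells. Its ratio of the highest to the lowest library (1.57) became 1.55 under 10%, 1.57 with all barcodes, 1.58 without the cells with the most UMIs, and 1.68 with the reduced denominator. Placing the barcodes on the first columns gave 6.72%, a ratio of 1.13 with library 8 highest and library 6 lowest, a mt-Co3 use of 22.8%, and 1 gene with libraries 7 and 8 lowest in place of 9, so these results rest on the placement. Leaving out 1 library gave shares of 5.38% to 6.41%, ratios of 1.55 to 1.57, and a mt-Co3 use of 26.1% to 27.3%. The use of mt-Co3 (26.7%) was 26.8% under 10%, 26.9% without the cells with the most UMIs, 27.1% as the mean of cells, 29.6% per kilobase, and 25.8% among all 13 genes, and the order of the 10 genes changed under 1 alternative, per kilobase. Cells over the limit (4.27%) were 66.9% at a limit of 5%, 0.258% at 20%, and 5.57% of all barcodes. At resolution 0.1, 5 clusters formed. The counts of 5 higher and 8 lower genes between the top and bottom 10% of cells became 1 and 3 between the top and bottom 20% and 1 and 3 without clusters D, F, and G. There were 3 higher genes under 10% and 1 between the quartiles of UMIs. Leaving out 1 library gave 5 to 14 higher and 8 to 23 lower genes, with the most higher without library 5 (14) and the most lower without library 7 (23). The causes were not tested.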
